A study of Homo sapiens with 4 samples.

Results

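The p53 target genes are a set of 31 genes, listed by gene symbol, most of them textbook transcriptional targets of the tumour suppressor p53. The set was chosen with earlier results of these data known, so the shares of called genes below are descriptive. Of the 31 symbols, 30 had a row among the 51103 genes of the tables, and TIGAR2 matched no gene name and was not analysed here. The levels were read in SCC-15, a human cell line labelled as oral squamous cell carcinoma (OSCC), in 2 libraries from cells carrying a lentivirus for REEP6 overexpression and 2 libraries from negative control cells labelled NC. The cells of both groups were harvested after 48 hours, per the labels' protocols, and polyadenylated RNA was sequenced. The labels do not say what the control virus carried or whether either line was a single clone. The labels name no separate cultures behind the 2 libraries of a group, so every p-value below rests on a spread that may be technical.

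In unstressed cells p53 is kept low by MDM2, an E3 ubiquitin ligase that is itself a p53 target, and by the related protein MDM4. After DNA damage or other stress p53 accumulates and binds response elements made of repeated decamers near genes for cell cycle arrest, DNA repair, metabolism and cell death. Many of these genes also answer to other transcription factors, so their RNA is not a readout of p53 alone. REEP6 is a membrane protein of the endoplasmic reticulum, and the series was set up to find genes that respond to it.

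Each library held between 12856256 and 15208629 counts assigned to genes. REEP6 was 20.0 and 20.9 FPKM in the REEP6 libraries, against 11.1 and 12.6 FPKM in the control libraries (FPKM is a count scaled to the length of the gene and to the total of the library). That was a log2 fold change of 0.82 ± 0.108 (SE, n = 2 per group; edgeR quasi-likelihood test, adjusted p 0.00119). The rise was only 1.76-fold, and REEP6 ranked 371 by log2 fold change among the 13077 tested genes. The markers of the labelled cell type were close to absent: 8 epithelial markers, with KRT5, KRT14, KRT6A, KRT17, TP63, SFN and CDH1 among them, summed to 2.08 and 2.49 FPKM with REEP6 and 1.05 and 1.77 FPKM in the controls, and EPCAM alone passed the filter on low values. Fibroblast markers summed to 3.35 and 3.89 FPKM over 6 genes with REEP6, against 9.83 and 10.7 FPKM in the controls, but they did not move together. LUM carried most of the difference, at 1.00 and 1.35 FPKM with REEP6 and 6.65 and 7.91 FPKM in the controls. PDGFRB was lower too, at 1.06 and 1.23 FPKM with REEP6 and 2.08 and 1.74 FPKM in the controls. So was COL1A1, at 0.292 and 0.245 FPKM with REEP6 and 0.396 and 0.355 FPKM in the controls. PDGFRA, which did not pass the filter, lay the other way, at 0.986 and 1.06 FPKM with REEP6 and 0.663 and 0.709 FPKM in the controls. DCN and COL1A2 were near 0. Mitochondrial genes took 5.81% and 6.02% of the counts with REEP6 and 3.90% and 5.44% in the controls, with control replicate 1 the lowest. The part of these differences in the results below was not tested, and in such bulk RNA fewer cells of a type and less RNA per cell cannot be told apart.

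Matches to the p53 response element are printed first, although only a minority of these genes held one in the sequence searched. RefSeq promoter windows (GRCh38.p14, 250 bases before to 50 after a transcription start) were found for 24 of the 31 genes and searched for the p53 decamer, whose consensus reads the same on both strands. A perfect decamer lay in a window of 6 of these 24 genes (25%), and in a window of 8.06% of the 27305 genes with a window. A gene can have several windows. Per window, the share was 16.2% of the 37 windows of these genes and 6.63% of all 35116 windows. The set was chosen as p53 targets, so a higher share is no separate finding. A pair of decamers up to 13 bases apart with at most 2 mismatches in 20 letters lay at 5 of the 24 genes (20.8%), against 3.62% of all genes with a window. Each sequence below is 30 bases, 5′ to 3′ on the strand of the gene, with the decamers in capitals.
DDB2: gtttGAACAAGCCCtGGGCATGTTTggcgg
FDXR: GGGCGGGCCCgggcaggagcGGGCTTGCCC
AEN: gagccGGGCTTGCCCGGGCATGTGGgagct
FAS: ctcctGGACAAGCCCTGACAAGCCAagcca
MDM2: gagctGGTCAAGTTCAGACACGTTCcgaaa
PLK2: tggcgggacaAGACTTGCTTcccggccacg
SESN1: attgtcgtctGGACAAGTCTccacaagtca

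The DDB2 site (chr11:47214975-47215004, plus strand) began 6 bases into the transcript of the more downstream of 2 RefSeq starts and held a pair of decamers with 0 mismatches and a spacer of 1 base. The FDXR site (chr17:74872996-74873025, minus strand), the AEN site (chr15:88621301-88621330, plus strand), the FAS site (chr10:88991304-88991333, plus strand) and the MDM2 site (chr12:68808918-68808947, plus strand) were pairs with 2 mismatches each. PLK2 (chr5:58460199-58460228, minus strand) and SESN1 (chr6:109009018-109009047, minus strand) held a single perfect decamer. A match of letters describes the window and does not show that p53 was bound there. Many known p53 elements lie outside such short windows, so a window without a match says nothing of the factor.

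Under REEP6 overexpression the p53 target genes did not move as a block: 8 fell, 3 rose and 16 did not pass the test, out of 27 that were tested. The largest fall was that of the growth arrest gene BTG2, followed by TP53INP1, ZMAT3 and GADD45A, and the largest rise was that of the death receptor gene TNFRSF10A. The classical targets CDKN1A and MDM2 were not among the 11 that passed. Genes were tested if they reached 1 FPKM in at least 2 of the 4 libraries, and calls are at an edgeR adjusted p of 0.05 over all 13077 genes that did. The share called was 40.7% of the 27 tested target genes, against 25.0% of all tested genes. Lower calls were 29.6% of the target genes against a background of 14.2%, and higher calls 11.1% against 10.9%. The median log2 fold change was -0.04 over the tested target genes and -0.01 over all tested genes. The TMM-scaled libraries of the groups did not overlap for 19 of the 27 genes (70.4%), with 63.7% of all tested genes in the same position.

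**Figure D1:**
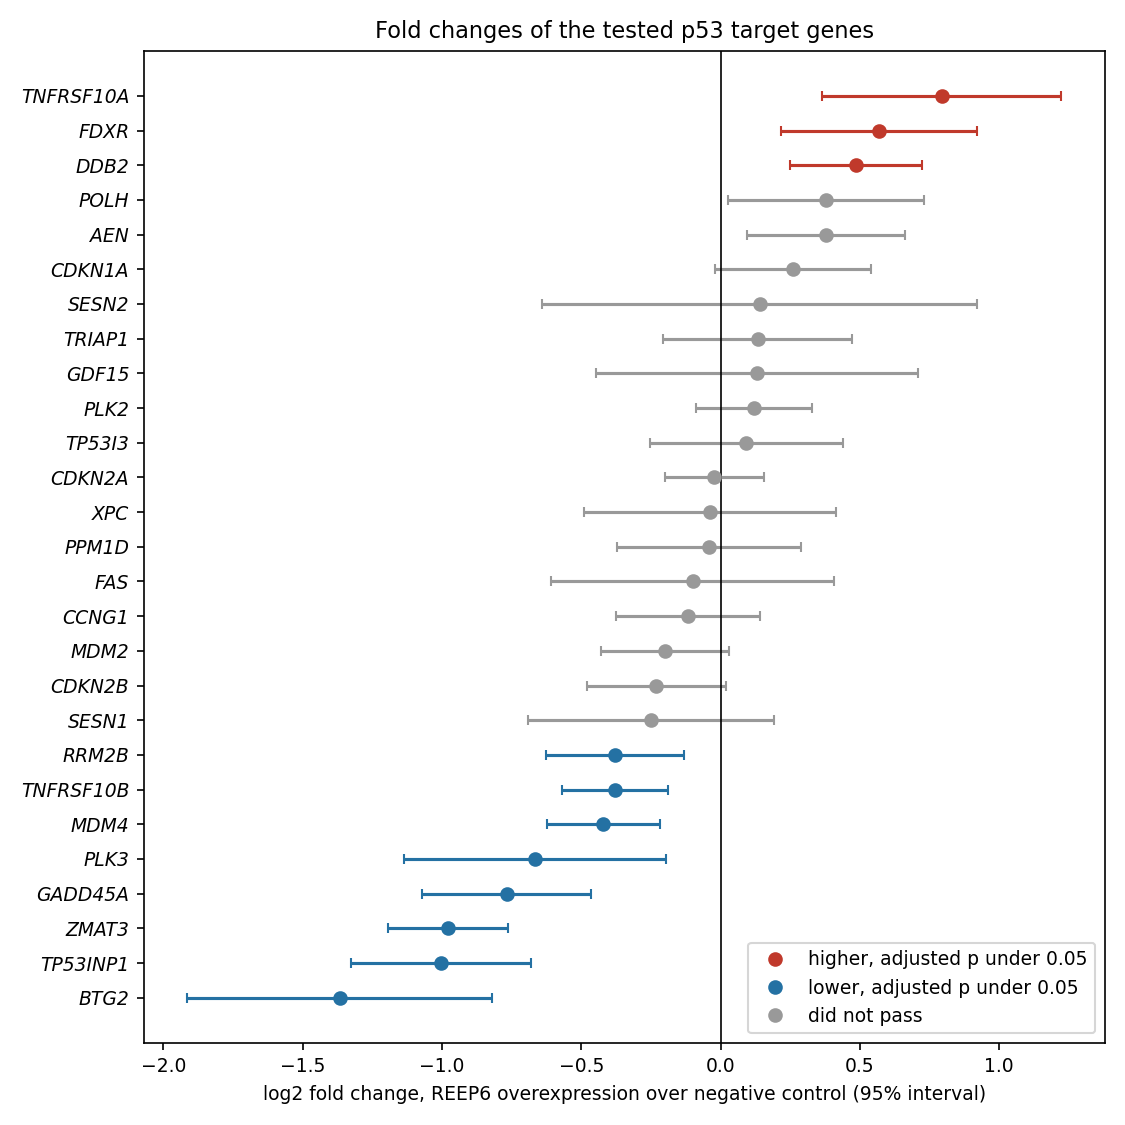
Log2 fold change of REEP6 overexpression over negative control (x axis) for each of the 27 tested p53 target genes (y axis, sorted), with 95% intervals from the edgeR fit. The 3 red genes were higher and the 8 blue genes lower at an adjusted p of 0.05, and the 16 grey genes did not pass.

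The counts depended on which library was left out, and leaving out control replicate 1 did not lower them. Without REEP6 replicate 1 the target genes called lower were 4 and those called higher 2, against a background of 8.96% and 8.49% of the genes then tested. Without REEP6 replicate 2 they were 5 and 4 (background 10.5% and 8.76%), and without control replicate 2 they were 6 and 1 (background 11.5% and 11.4%). With FPKM scaled to equal sums, a scaling that put the median of all tested genes at -0.14 on the log2 scale, 10 were lower and 2 higher, against backgrounds of 21.6% and 5.05%. Limma on log2(FPKM + 1) called 6 lower and 2 higher, against 9.73% and 4.85% of all genes.

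Brakes on the cell cycle gave 3 of the 8 falls and 0 of the 3 rises, with 7 of 7 genes tested. Of all tested genes 14.2% were called lower and 10.9% higher, and the counts of this and the following role groups, of 3 to 7 tested genes each, stand against that background. BTG2 (chromosome 1, 203305491 to 203309602, plus strand; coordinates here and below are those of GENCODE 29 on GRCh38), an antiproliferative protein that recruits the CCR4-NOT deadenylase to messenger RNA, was 0.986 and 1.17 FPKM in the REEP6 libraries, against 2.60 and 3.08 FPKM in the controls. Both REEP6 libraries were below both controls by more than the spread within either group. The counts behind these values were 36 and 43 with REEP6 and 92 and 129 in the controls. The log2 fold change was -1.37 ± 0.244 (SE, n = 2 per group; edgeR adjusted p 0.00421), a 2.58-fold fall, and -0.88 with limma on log2(FPKM + 1), a scale that understates changes of low genes. GADD45A (chromosome 1, 67685061 to 67688338, plus strand), a stress protein that binds PCNA and restrains the cell cycle at G2, was 16.1 and 14.1 FPKM with REEP6 and 29.5 and 23.0 FPKM in the controls. Its groups did not overlap, and it fell by 0.77 ± 0.135 on the log2 scale (SE, edgeR adjusted p 0.00391).

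The stress-responsive polo-like kinase gene PLK3 was 1.41 and 1.64 FPKM with REEP6 and 2.33 and 2.61 FPKM in the controls. It fell by 0.67 ± 0.209 on the log2 scale (SE, edgeR adjusted p 0.0439). That call ended without any of 3 libraries, namely control replicate 2, REEP6 replicate 1 and REEP6 replicate 2, and with DESeq2 and both limma fits; the adjusted p was between 0.00501 and 0.247 over 13 alternatives. Its paralog PLK2, which acts in centriole duplication, stood at 11.5 and 12.1 FPKM with REEP6 and 10.8 and 11.3 FPKM in the controls. The PLK2 log2 fold change was 0.12 (95% interval -0.09 to 0.33, edgeR adjusted p 0.381), with -0.01 under equal FPKM sums.

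CDKN1A codes for the cyclin-dependent kinase inhibitor p21, the best known target of p53. It was 12.1 and 10.5 FPKM in the REEP6 libraries, against 9.08 and 10.2 FPKM in the controls. Both REEP6 values were above both control values, but the difference did not pass: the log2 fold change was 0.26 ± 0.125 (SE, 95% interval -0.02 to 0.54, edgeR adjusted p 0.155). CDKN2A, which codes for the INK4A inhibitor of CDK4 and CDK6 and, in another reading frame, for ARF, an inhibitor of MDM2, is not a target activated by p53 but a partner in its network. It was among the best expressed genes of the set, at 73.1 and 75.2 FPKM with REEP6 and 76.5 and 77.0 FPKM in the controls, a log2 fold change of -0.02 (95% interval -0.20 to 0.16). The counts do not separate its reading frames, and 7.88% of its exonic bases also lie in exons of the antisense gene CDKN2B-AS1. Its neighbour CDKN2B, another inhibitor of CDK4 and CDK6, stood at 14.7 and 13.2 FPKM with REEP6 and 18.1 and 15.3 FPKM in the controls (log2 fold change -0.23, 95% interval -0.48 to 0.02, edgeR adjusted p 0.156).

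**Figure D2:**
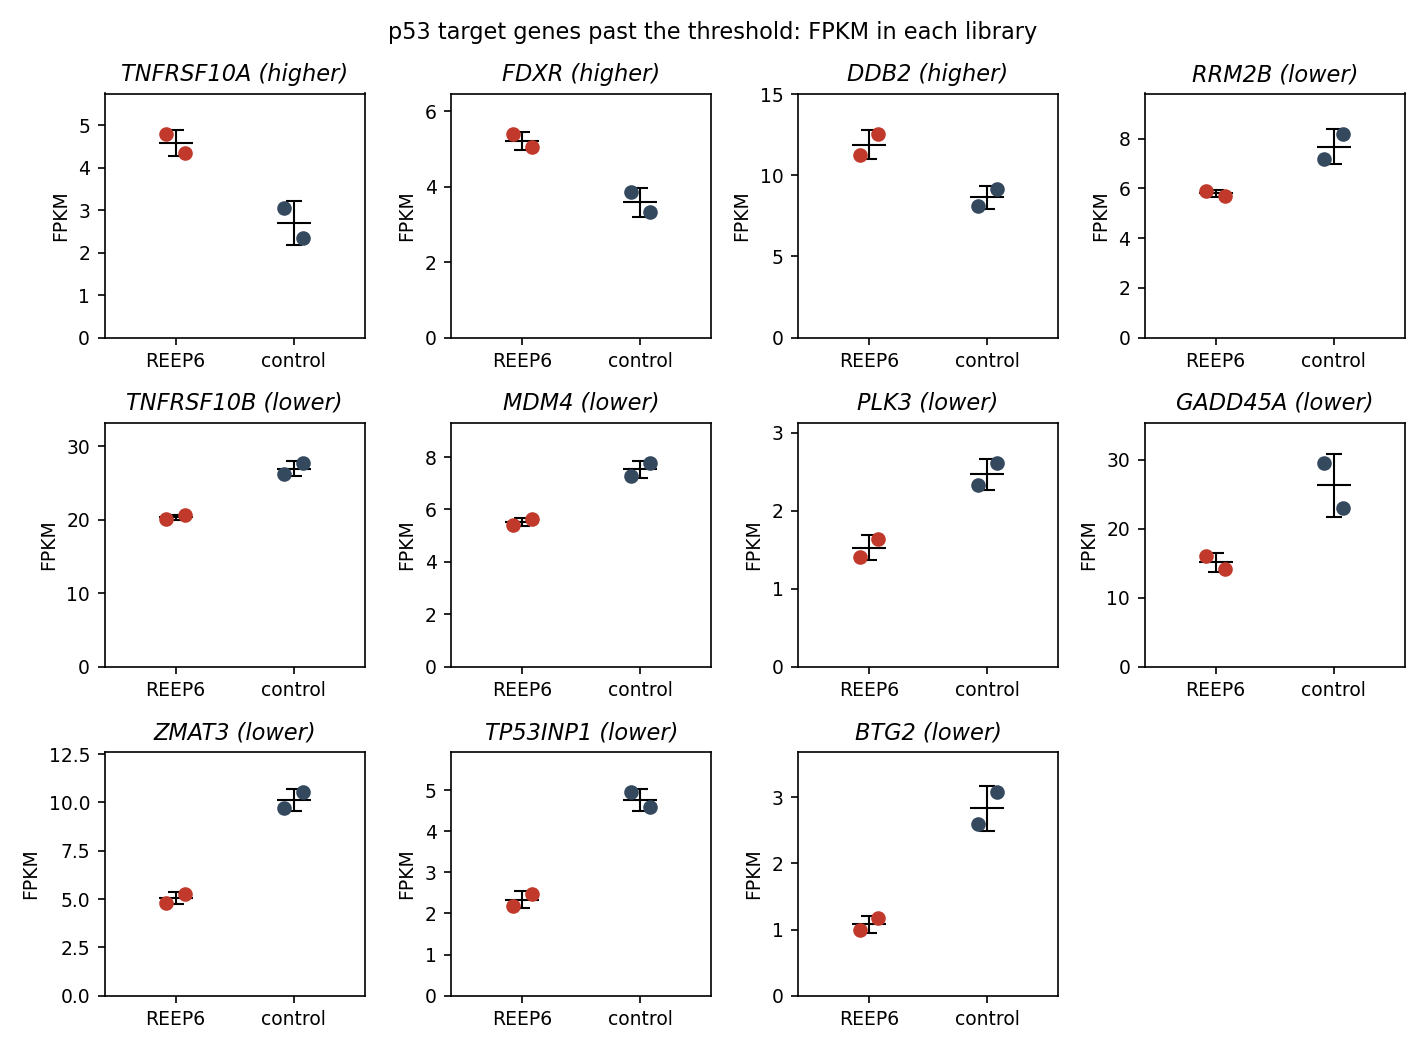
FPKM (y axis, from 0) in each REEP6 (red) and control (dark) library for the 11 p53 target genes that passed the test, with the mean as a long dash and the SD of the 2 libraries as error bars. In every panel the REEP6 points lie wholly above (TNFRSF10A, FDXR, DDB2) or wholly below (the other 8) the control points.

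Among the genes that feed back on p53, MDM4 fell and the others did not pass. MDM4 (chromosome 1, 204516379 to 204558120, plus strand), which masks the transactivation domain of p53, was 5.41 and 5.62 FPKM with REEP6 and 7.28 and 7.76 FPKM in the controls. The groups were well apart, and the gene fell by 0.42 ± 0.0909 on the log2 scale (SE, edgeR adjusted p 0.00987). Its call ended without REEP6 replicate 1 (edgeR adjusted p 0.0681, the highest over 14 alternatives, whose lowest was 1.25e-07). MDM2 was 4.12 and 4.84 FPKM with REEP6 and 5.13 and 5.35 FPKM in the controls (log2 fold change -0.20, 95% interval -0.43 to 0.03, edgeR adjusted p 0.182), and it was called lower with equal FPKM sums (edgeR adjusted p 0.045; 0.0235 to 0.815 over 14 alternatives). Within each library MDM2 stood at 0.762 and 0.861 of the MDM4 level (FPKM ratio) with REEP6 and at 0.704 and 0.689 in the controls. PPM1D, the phosphatase WIP1 that switches off the damage response, was 4.57 and 3.86 FPKM with REEP6 and 4.16 and 4.67 FPKM in the controls, so its groups overlapped. CCNG1, cyclin G1, had the highest level of the set, at 152 and 183 FPKM with REEP6 and 168 and 202 FPKM in the controls. These also overlapped, with a log2 fold change of -0.12 (95% interval -0.38 to 0.14).

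DNA repair genes went both ways, with 1 rise and 1 fall among 4 tested. DDB2 (chromosome 11, 47214465 to 47239240, plus strand), which recognises ultraviolet lesions in chromatin for nucleotide excision repair and carries the complete decamer pair printed above, was 11.2 and 12.5 FPKM with REEP6 and 8.12 and 9.14 FPKM in the controls. Its groups did not overlap, and it rose by 0.49 ± 0.106 on the log2 scale (SE, edgeR adjusted p 0.0102). It missed the threshold in both limma fits (limma adjusted p 0.0502 with a pseudocount of 1; 8.85e-08 to 0.0518 over 14 alternatives). RRM2B, the ribonucleotide reductase subunit that supplies nucleotides for repair and for mitochondrial DNA, was 5.90 and 5.70 FPKM with REEP6 and 7.18 and 8.18 FPKM in the controls. It fell by 0.38 ± 0.111 on the log2 scale (SE, edgeR adjusted p 0.034). That call ended in 6 of 14 alternatives, among them the fits without control replicate 2, without REEP6 replicate 1 and without REEP6 replicate 2 (edgeR adjusted p 0.194, 0.105 and 0.151), and the lowest adjusted p was 0.000414.

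POLH, the polymerase that copies past ultraviolet lesions, was 5.40 and 6.29 FPKM with REEP6 and 4.17 and 4.96 FPKM in the controls, a log2 fold change of 0.38 (95% interval 0.03 to 0.73) that did not pass after adjustment (edgeR adjusted p 0.105). XPC, the partner of DDB2 in lesion recognition, was 5.23 and 3.87 FPKM with REEP6 and 5.64 and 3.92 FPKM in the controls. The libraries numbered 2 were low in both groups and the groups overlapped (log2 fold change -0.04, 95% interval -0.49 to 0.41). XPC shares 30.4% of its exonic bases with genes on the opposite strand, LSM3 among them, and the sources used here do not say whether the counting used strand, so its level is uncertain.

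Of the receptors for the death ligand TRAIL, TNFRSF10A rose and TNFRSF10B fell. TNFRSF10A (chromosome 8, 23190452 to 23225126, minus strand) was 4.79 and 4.36 FPKM with REEP6 and 3.06 and 2.34 FPKM in the controls, and it rose by 0.79 ± 0.191 on the log2 scale (SE, edgeR adjusted p 0.0156). TNFRSF10B (chromosome 8, 23020133 to 23069179, minus strand), the receptor more often described as a p53 target, was 20.1 and 20.6 FPKM with REEP6 and 26.2 and 27.7 FPKM in the controls, and it fell by 0.38 ± 0.0851 (SE, edgeR adjusted p 0.0116). The groups overlapped for neither gene. TNFRSF10D, a decoy receptor for TRAIL from the list of further p53 targets, was 18.2 and 18.2 FPKM with REEP6 and 16.3 and 18.8 FPKM in the controls and did not pass (log2 fold change 0.08, 95% interval -0.14 to 0.31, edgeR adjusted p 0.596). As a ratio of FPKM within a library, TNFRSF10A stood at 0.238 and 0.212 of TNFRSF10B with REEP6, against 0.117 and 0.0845 in the controls, so the better expressed receptor was TNFRSF10B in all 4 libraries. The TNFRSF10A call ended without control replicate 2 (edgeR adjusted p 0.0552; 1.79e-05 to 0.0552 over 13 alternatives), and 16.6% of its exonic bases are shared with antisense genes that had 6 to 18 counts per library. The TNFRSF10B call was lost when either REEP6 library was left out (edgeR adjusted p 0.0862 without replicate 1 and 0.0527 without replicate 2; 3e-08 to 0.0862 over 14 alternatives).

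The third death receptor gene, FAS, was low, at 1.24 and 1.13 FPKM with REEP6 and 1.28 and 1.31 FPKM in the controls (log2 fold change -0.10, 95% interval -0.61 to 0.41). On 64 to 85 counts per library a change of this size was not detectable. EDA2R, a receptor for the ectodysplasin isoform EDA-A2, had 2 counts in REEP6 replicate 1 and 0 in the other libraries, which allows up to 0.233 CPM (3 counts, covering counting error only) in the shallowest of them.

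Genes that act around apoptosis and growth held the fall with the smallest p of the set. ZMAT3 (chromosome 3, 179017223 to 179072279, minus strand), a zinc finger protein that binds RNA and regulates splicing downstream of p53, was 4.82 and 5.27 FPKM with REEP6 and 9.72 and 10.5 FPKM in the controls. With 615 to 1545 counts per library the groups were far apart, and the gene fell 1.97-fold (log2 fold change -0.98 ± 0.0964 SE, edgeR adjusted p 0.000379). TP53INP1 (chromosome 8, 94925972 to 94949411, minus strand), a stress-induced protein of the nucleus and of autophagy that promotes phosphorylation of p53, was 2.18 and 2.48 FPKM with REEP6 and 4.95 and 4.58 FPKM in the controls. It fell 2.00-fold (SE 0.144 on the log2 scale, edgeR adjusted p 0.00168). BTG2, GADD45A, ZMAT3 and TP53INP1 are the 4 of the 11 called genes that passed under every alternative that tested them.

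AEN, an exonuclease of the nucleolus that promotes apoptosis, lay just outside the threshold, at 6.65 and 6.20 FPKM with REEP6 and 5.57 and 4.53 FPKM in the controls. Its log2 fold change of 0.38 ± 0.126 (SE) had an edgeR adjusted p of 0.0545, and it was called higher in 5 of 14 alternatives (adjusted p 0.00063 to 0.219), among them the fits without control replicate 1 and without REEP6 replicate 2. GDF15, a secreted stress cytokine of the TGF-beta family, was 3.84 and 2.45 FPKM with REEP6, which spanned its values of 2.76 and 3.09 FPKM in the controls. TRIAP1, a small mitochondrial protein that restrains apoptosis, was 14.3 and 13.4 FPKM with REEP6 and 11.7 and 14.0 FPKM in the controls, again with overlap. PHLDA3, an inhibitor of AKT, had 8 and 2 counts with REEP6 and 9 and 12 counts in the controls, and was below the filter.

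Of the metabolic and mitochondrial targets 1 rose and 3 did not pass. FDXR (chromosome 17, 74862497 to 74873031, minus strand), the ferredoxin reductase that passes electrons to mitochondrial enzymes of steroid and iron-sulfur cluster synthesis, was 5.39 and 5.05 FPKM with REEP6 and 3.87 and 3.33 FPKM in the controls. It rose by 0.57 ± 0.156 on the log2 scale (SE, edgeR adjusted p 0.0263). Its call ended without control replicate 2 (edgeR adjusted p 0.0875), without REEP6 replicate 1 (0.085), with equal FPKM sums (0.0752) and in the limma fit with a pseudocount of 0.1 (0.0508), in a range of 0.00031 to 0.0875 over 14 alternatives. TP53I3, a quinone oxidoreductase, was 7.19 and 6.34 FPKM with REEP6 and 6.39 and 6.54 FPKM in the controls. The sestrins, which restrain mTORC1 under stress, were low: SESN1 was 1.90 and 1.66 FPKM with REEP6 and 2.45 and 1.89 FPKM in the controls. SESN2 was 1.25 and 1.96 FPKM with REEP6 and 0.969 and 1.96 FPKM in the controls. For SESN2 replicate 1 lay below replicate 2 in both groups, and the 95% interval of the log2 fold change ran from -0.64 to 0.92, so neither a rise nor a fall of moderate size was detectable. SPATA18, a gene of mitochondrial quality control, had 0 counts in all 4 libraries, which allows up to 0.197 to 0.233 CPM.

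**Figure D3:**
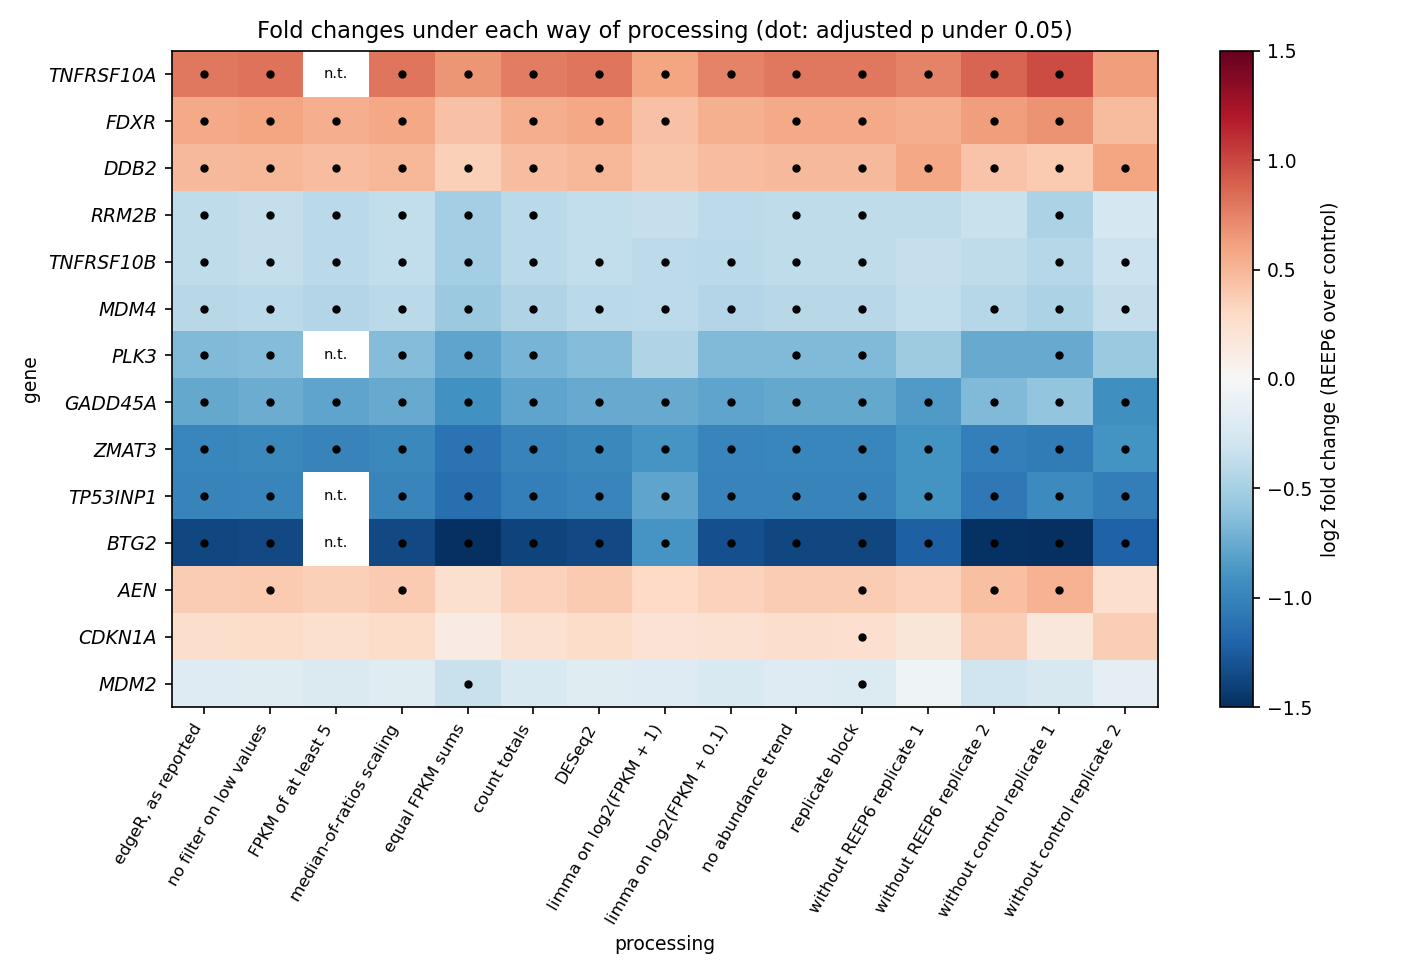
Log2 fold change (colour, red higher and blue lower with REEP6) of the 11 called p53 target genes and of AEN, CDKN1A and MDM2 (rows) as reported and under 14 other ways of processing (columns). A dot marks an adjusted p under 0.05 and n.t. a gene not tested; the dots are complete for GADD45A, ZMAT3, TP53INP1 and BTG2 wherever they were tested.

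By call, a perfect decamer was present in a searched window of DDB2 and FDXR, the 2 genes called higher that had a window, and of 0 of 4 genes called lower with a window (BTG2, MDM4, PLK3 and ZMAT3). Among the genes that did not pass, 4 of 16 with a window held one (AEN, FAS, PLK2 and SESN1). The numbers are too small for a statement beyond these counts. As an example without a match, the bases before BTG2 (chr1:203305269-203305490, plus strand, 222 bases ending where the annotated gene begins), the gene with the largest fall, are printed in lower case.
BTG2: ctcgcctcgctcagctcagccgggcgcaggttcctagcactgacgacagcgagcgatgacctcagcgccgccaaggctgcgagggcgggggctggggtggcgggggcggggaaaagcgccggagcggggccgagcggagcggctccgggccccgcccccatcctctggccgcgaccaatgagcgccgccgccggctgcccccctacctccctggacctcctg

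Further lists of the p53 pathway were read in the same fit, with 25.0% of all tested genes called. Of 11 tested p53 targets of cell death 2 fell and 0 rose (18.2% called, median log2 fold change 0.05). The fallers were BBC3, which codes for the BH3-only protein PUMA, by 0.63 ± 0.183 on the log2 scale (SE, edgeR adjusted p 0.0322), and PMAIP1, which codes for the BH3-only protein NOXA, by 0.27 ± 0.0867 (SE, edgeR adjusted p 0.0466). Fewer genes of that list were lower without REEP6 replicate 1, without REEP6 replicate 2 or without control replicate 2. Leaving out control replicate 1 did not change their number. BAX, the pore-forming effector, was 23.6 and 17.2 FPKM with REEP6 and 21.9 and 18.4 FPKM in the controls.

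Of 20 further p53 targets tested, TP53I11, CYFIP2 and KITLG passed the filter on low values only through the group where each was high, so they had to differ and their tests are not given. TP53I11 was 1.55 and 1.37 FPKM with REEP6 and 0.392 and 0.474 FPKM in the controls. CYFIP2, a subunit of the actin-regulating WAVE complex, was 1.15 and 1.12 FPKM with REEP6 and 0.474 and 0.608 FPKM in the controls. KITLG, the ligand of the receptor KIT, was 0.597 and 0.497 FPKM with REEP6 and 1.42 and 1.52 FPKM in the controls. Of the other 17 genes 1 rose and 3 fell (23.5% called), a share near the background. The helicase gene ASCC3 fell by 0.56 ± 0.0935 on the log2 scale (SE, edgeR adjusted p 0.00315). The calls of TP53I11, CYFIP2 and KITLG are not counted. Each of those 3 genes fails the filter once a library of its high group is left out. A change of the counts of this list with a library left out was thus partly fixed in advance and is not read here. TIGAR, the fructose bisphosphatase whose name resembles the unmatched TIGAR2, had 16 and 4 counts with REEP6 and 17 and 20 counts in the controls and was below the filter.

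Regulators and partners of p53 gave 5 rises and 3 falls among 22 tested (36.4% called, median 0.08). PPP1R13L, which codes for the p53 inhibitor iASPP, had the largest change, at 3.14 and 3.96 FPKM with REEP6 and 1.47 and 1.74 FPKM in the controls (log2 fold change 1.17 ± 0.185 SE, edgeR adjusted p 0.00251). The damage-signalling kinases ATR and ATM fell by 0.55 ± 0.089 and 0.40 ± 0.0958 on the log2 scale (SE, edgeR adjusted p 0.00262 and 0.0146), and the acetyltransferase gene CREBBP rose by 0.31 ± 0.0831 (SE, edgeR adjusted p 0.0247). Fewer genes of the list were called without REEP6 replicate 1, without REEP6 replicate 2 or without control replicate 2. Leaving out control replicate 1 did not lower their number. Scaling FPKM to equal sums left 1 gene of the list higher and 4 lower, against 5.05% and 21.6% of all tested genes.

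Genes that p21 is known to repress through the DREAM complex, which act in mitosis and proliferation, had 8 of 16 higher and 2 lower (62.5% called, median 0.34). FOXM1, a transcription factor of mitotic genes, was 35.6 and 34.0 FPKM with REEP6 and 19.8 and 22.2 FPKM in the controls (log2 fold change 0.76 ± 0.0932 SE, edgeR adjusted p 0.000935). MYBL2 rose by 0.57 ± 0.0884 on the log2 scale, while the topoisomerase gene TOP2A fell by 0.58 ± 0.0837 and the kinesin gene KIF23 by 0.54 ± 0.0939 (SE each). With equal FPKM sums the list had 4 of 16 higher and 3 lower, against 5.05% and 21.6% of all tested genes. Of 15 tested G1 cyclins, kinases and inhibitors 3 rose (CDK2, CDK4 and CCND3) and the retinoblastoma relatives RBL1 and RBL2 fell (33.3% called, median 0.08). The counts of the G1 list changed with single libraries left out. Scaled to equal FPKM sums, 1 G1 gene was higher and 3 lower, against the same background of that scaling.

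Of ATF4, the effector of the integrated stress response, and its targets 4 of 9 tested rose and 1 fell (55.6% called, median 0.14). The list shares SESN2, GDF15 and TNFRSF10B with the p53 targets, and TNFRSF10B is the member that fell. The serine synthesis genes PHGDH and PSAT1 rose by 0.73 ± 0.0846 and 0.64 ± 0.095 on the log2 scale (SE, edgeR adjusted p 0.000734 and 0.00185). The pseudokinase gene TRIB3 rose by 0.72 ± 0.208 (SE, edgeR adjusted p 0.0312). With equal FPKM sums 2 of the list were higher and 1 lower, against 5.05% and 21.6% of all tested genes. The counts of the list also changed with single libraries left out, and the TNFRSF10B call was lost without either REEP6 library, as given above. Limma on log2(FPKM + 1) called fewer genes in these lists, as it did over all tested genes, of which 4.85% were higher and 9.73% lower. It called 0 of the cell death targets, and 1 higher and 1 lower of the regulators. Its counts for the further targets included TP53I11, CYFIP2 and KITLG and are not given. Of the genes repressed through DREAM 5 were higher and 2 lower, of the G1 genes 1 and 0, and of the ATF4 list 2 and 2.

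**Figure D4:**
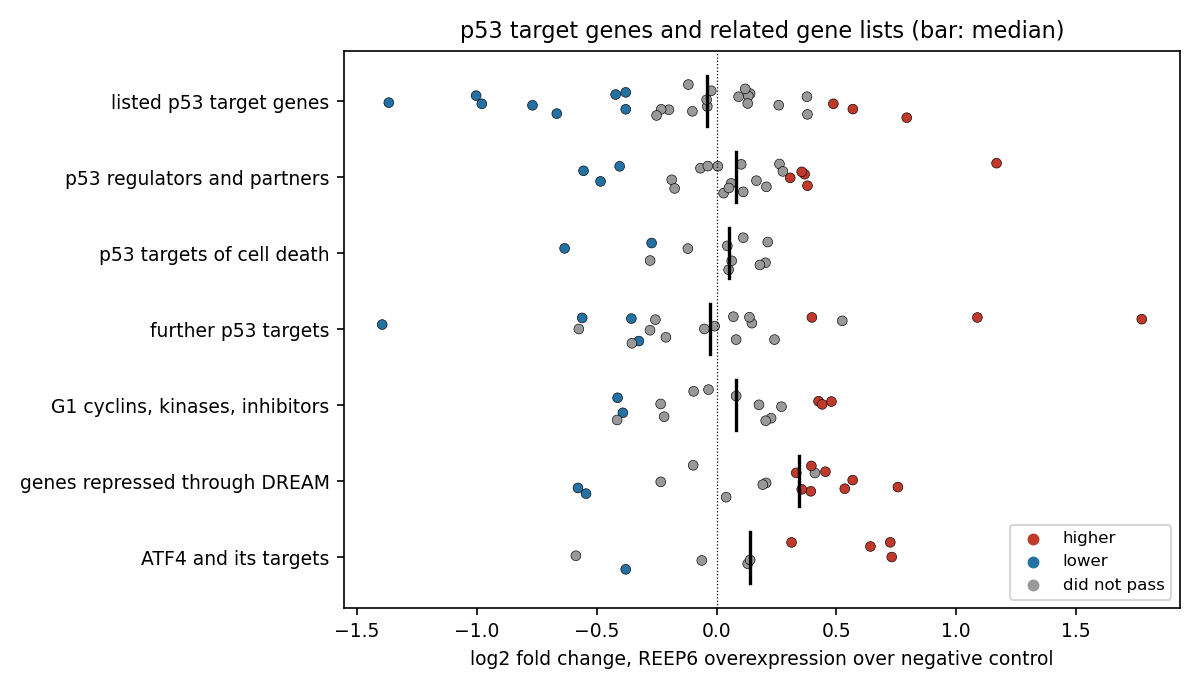
Log2 fold change of REEP6 overexpression over negative control (x axis) for every tested gene of the p53 target set and of 6 related lists (y axis), coloured by call, with the median of each list as a bar. TP53I11, CYFIP2 and KITLG are shown, but their calls are not read, as they had to differ to pass the filter. The medians lie between -0.04 for the p53 target set and 0.34 for the genes repressed through DREAM; vertical spread within a row carries no value.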

How the data were processed

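The members and gene lists were chosen with earlier results of these data known. Per the file headers, each library's deposited table holds a count and an FPKM column over 51103 Ensembl genes. Per the submitters' processing notes, HISAT2, HTSeq 0.13.5 and build GRCh38 were used, in unstated roles; the annotation, the strand setting and the handling of multi-mapped reads are not stated there. The deposited FPKM followed the count and the count total for 100% of 29161 genes (relative tolerance 0.0001). Libraries of a group differed by more than counting noise (chi-square per degree of freedom 6.24 for REEP6 and 10.6 for the controls). Intervals and floors from counts cover counting error only.

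Counts were scaled by TMM and fitted with edgeR 4.0.16 (quasi-likelihood, R 4.3.3) on all 4 libraries, group as the only term, for 13077 genes with at least 1 FPKM in 2 libraries. Tests were two-sided with Benjamini-Hochberg adjustment over these genes. The SE of a log2 fold change is its size over the square root of F. With 2 libraries a group the smallest two-sided exact permutation p is 0.333, so that test was not used. The fit was tested on simulated data. Named genes are all members, REEP6, TIGAR and up to 4 called genes with the smallest p of each list; BAX, KRT genes and others named beyond this were chosen after their values were seen. One further gene of that rule is not reported here. Gene overlaps come from GENCODE 29. Alternatives used DESeq2 1.42.0, limma 3.58.1 (pseudocounts 1 and 0.1), other filters and scalings, a replicate block and each library left out; count totals were added after seeing the data.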

Additional observations from a re-analysis of the deposited data

How the results depend on the processing

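All 11 called target genes kept their sign under 14 alternatives; 22 of 150 single values lost the threshold. Target genes called higher (3) became 1 with limma on log2(FPKM + 0.1), 6 with a replicate block and 1 to 4 with a library left out. Those called lower (8) became 5 with a minimum of 5 FPKM, a filter that left BTG2, TP53INP1 and PLK3 untested. The lower genes still tested there, RRM2B, TNFRSF10B, MDM4, GADD45A and ZMAT3, all stayed called. The number of lower target genes also fell in some fits with a library left out. All genes called higher (1422 of 13077 tested) became 936 with a minimum of 5 FPKM, where only 7425 genes were tested. Of the same 13077 genes, 661 were higher with equal FPKM sums and 2960 with a replicate block. Limma at pseudocounts of 1 and 0.1 called 634 and 597 of them higher. The number also changed with a library left out. Those called lower (1853) became 2824 with equal FPKM sums, 1233 with limma at 0.1, 3062 with a replicate block and 1138 to 1725 with a library left out. Beyond the genes that the 5 FPKM filter left untested, the cause of these differences was not tested.

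Signs changed only among genes that were not called. With equal FPKM sums TP53I3 was -0.0398, PLK2 -0.012 and GDF15 -0.0013 (log2). With a library left out the log2 fold change ran from -0.25 to 0.0399 for CCNG1, -0.21 to 0.44 for GDF15, -0.27 to 0.77 for SESN2, -0.038 to 0.0201 for CDKN2A, -0.26 to 0.23 for XPC, -0.15 to 0.093 for PPM1D and -0.0036 to 0.30 for TRIAP1. Where an arm was left with 1 library, it was assumed to vary like the other group. The replicate numbers name 2 libraries per group and no label ties them to a culture or day; replicate differences of the groups correlated at r = 0.272 over 13077 genes, so the block counts are a hint from the data. The replicate block also called AEN, CDKN1A and POLH higher and MDM2 and CDKN2B lower. FAS, SESN1, SESN2 and GDF15, on 43 to 161 counts per library, had wide intervals, but BTG2 and PLK3 were called on 36 to 138 counts, so the part of depth was not tested.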
